A study of Mus musculus with 2 samples.

Results

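Interferon-stimulated genes were followed in single spleen cells of mice: Ifit1, Ifit3, Isg15, Irf7, Ifi27l2a, Bst2 and Rtp4. These 7 members were chosen by name, and their rows were read from both tables out of 30457 genes listed in either. All cells were of female C57BL/6J mice aged 10 weeks with Lewis lung carcinoma, a tumour line of mouse lung, growing under the skin. An antibody against CD4 was injected at 200 µg a dose on day 5 and again on day 9, and spleens were taken on day 12. A pool of 3 spleens was freed of red cells, frozen and thawed, and 2000 of them were loaded on 1 BD Rhapsody cartridge, whose beads were split equally between the amplification methods after cDNA synthesis. TAS-Seq tails the cDNA with terminal transferase and amplifies from the tail, whereas BD WTA follows the kit supplied with the cartridge. Both libraries thus share the tumour, the antibody, the pooling and the freezing, there was no untreated mouse and no interferon-treated sample, and each method gave 1 library. No test was therefore possible, and every value describes these libraries only.

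Interferon-stimulated genes are switched on when an interferon binds its receptor at the cell surface. Type I interferons act through the receptor chains Ifnar1 and Ifnar2 and the kinases Jak1 and Tyk2, which activate Stat2. With Irf9, Stat2 is part of a factor that binds the interferon-stimulated response element in target promoters. Interferon gamma uses the receptor chains Ifngr1 and Ifngr2. In the spleen, plasmacytoid dendritic cells are known as strong producers of type I interferon, and T and NK cells as producers of interferon gamma. Among the members, Ifit1 and Ifit3 belong to a family that binds viral RNA, Isg15 is a ubiquitin-like protein that is attached to other proteins, and Irf7 is the transcription factor that amplifies type I interferon production. Bst2, also called tetherin, holds budding virus at the membrane and marks plasmacytoid dendritic cells in mice. Ifi27l2a encodes a small hydrophobic protein, and Rtp4 a chaperone of membrane receptors.

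The promoters of the members are shown because several of the genes were high together in some of the cells described further on, and because the response element can be looked for in their letters. The element was searched as GAAA, any 2 bases and GAAA again, on both strands in the 250 bases before each RefSeq start (GRCm38.p6), a window that ends at the base before the start, and overlapping matches were counted singly. It was present in 978 of 32851 promoters (2.98%), that is 936 of 27025 genes (3.46%). Of the 5 members with an entry, 4 held it (Ifit1, Ifit3, Isg15 and Bst2), and Irf7 held no match in this window. Ifi27l2a and Rtp4 had no entry. Capitals mark the matches, and all sequences run 5′ to 3′ on the strand of the gene. Ifit1 (chr19:34640639-34640888, + strand) has 2 matches, the first starting 104 bases before the start of transcription. Ifit3 (chr19:34583279-34583528, + strand) also has 2, the first at 156 bases. Isg15 (chr4:156200819-156201068, - strand) has 3 overlapping matches from 78 bases, and Bst2 (chr8:71537473-71537722, - strand) has 2 overlapping matches from 130 bases.
Ifit1: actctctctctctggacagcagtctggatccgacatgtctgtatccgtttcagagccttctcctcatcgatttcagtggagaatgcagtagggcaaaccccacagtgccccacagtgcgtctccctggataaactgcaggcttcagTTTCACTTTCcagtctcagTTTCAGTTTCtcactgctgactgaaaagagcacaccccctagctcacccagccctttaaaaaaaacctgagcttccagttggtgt
Ifit3: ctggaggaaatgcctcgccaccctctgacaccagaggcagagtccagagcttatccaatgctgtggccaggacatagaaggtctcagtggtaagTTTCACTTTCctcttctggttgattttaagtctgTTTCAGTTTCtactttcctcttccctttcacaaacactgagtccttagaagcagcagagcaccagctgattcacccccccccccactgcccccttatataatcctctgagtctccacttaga
Isg15: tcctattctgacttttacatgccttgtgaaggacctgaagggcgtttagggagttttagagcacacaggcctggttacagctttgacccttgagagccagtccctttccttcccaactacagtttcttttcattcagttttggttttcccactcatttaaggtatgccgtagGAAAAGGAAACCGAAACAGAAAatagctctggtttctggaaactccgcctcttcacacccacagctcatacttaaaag
Bst2: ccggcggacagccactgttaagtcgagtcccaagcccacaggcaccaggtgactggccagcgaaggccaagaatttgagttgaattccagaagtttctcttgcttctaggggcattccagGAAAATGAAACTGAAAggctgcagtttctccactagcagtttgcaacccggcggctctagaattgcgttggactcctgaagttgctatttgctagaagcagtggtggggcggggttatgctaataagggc

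The matches of Ifit1 and Ifit3 lie on the strand opposite to the gene, and those of Isg15 and Bst2 on the strand of the gene. Among 50 further targets of type I interferon that were listed for comparison, 40 had an entry and 14 of these (35%) held a match. A match describes the letters and is not evidence of binding. In the GENCODE annotation of GRCm38, Ifit1 (ENSMUSG00000034459.8) spans chr19:34640871-34650009 and Ifit3 (ENSMUSG00000074896.3) chr19:34583531-34588731, both on the + strand of chromosome 19. Reads of Ifit3 are uncertain, since 61.8% of the 31-base words of its transcript also occur in Ifit3b, its neighbour on the same chromosome. The other genes are Isg15 (chr4:156199424-156200818, - strand), Irf7 (chr7:141262706-141266481, - strand), Ifi27l2a (chr12:103442167-103443680, - strand), Bst2 (chr8:71534255-71537456, - strand) and Rtp4 (chr16:23520291-23614222, + strand). Shared words reached 12.8% for Isg15, 12.5% for Rtp4, 10.5% for Ifit1 and 6.00% for Ifi27l2a, and Irf7 and Bst2 shared none.

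The libraries held 38656790 reads over 736 barcodes (TAS-Seq) and 31608259 reads over 716 barcodes (BD WTA), with no barcode in common. Filters on genes and mitochondrial reads left 732 and 708 cells with medians of 46516 and 38154 reads over all barcodes. For values per cell, each cell was thinned to 20000 reads, so that 1 read is 50 CPM (reads per 1000000 reads of the cell) and 5 reads are 250 CPM. This kept 707 and 645 cells and left out 25 and 63 shallower ones. Reads were counted without molecular identifiers, so the exact 95% intervals below cover counting error only. Clusters of both libraries together, made without the members, gave B-like cells (352 in TAS-Seq, 309 in BD WTA), T-like cells (282 and 291) and NK-like cells (18 and 26), named from fixed markers. A pair of clusters that shared Plac8, Blk, Cybb, Pdia4 and Cr2 among their leading genes (56 and 55 cells, called unnamed A here) and by Tyrobp, Fcer1g and Alox5ap (24 and 27, unnamed B) met no naming rule. B-like and T-like cells of the libraries came mostly from different clusters (336 of 352 and 307 of 309 B-like cells, 238 of 282 and 230 of 291 T-like cells). The same holds for unnamed A, where 53 of 56 TAS-Seq cells were of a cluster led by Cr2 and 54 of 55 BD WTA cells of one led by Mzb1.

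Ifi27l2a was read in many cells, and each of the other members in few. At 20000 reads, Ifi27l2a had at least 1 read in 372 of 707 TAS-Seq cells (52.6%, with 48.9 to 56.4% as interval). In BD WTA it was 176 of 645 (27.3%, 23.9 to 30.9%). Bst2 followed with 19.1% and 8.22%, Irf7 with 13.9% and 5.89%, and Rtp4 with 8.77% and 7.91%. Ifit1, Ifit3 and Isg15 were each read in 4.10 to 5.80% of TAS-Seq cells and 2.33 to 4.34% of BD WTA cells. The median cell held no read of any member except Ifi27l2a in the TAS-Seq library, where it was 50 CPM. Unthinned shares ran from 4.78% (Ifit1) to 59.7% (Ifi27l2a) in TAS-Seq and from 2.54% to 27.7% in BD WTA.

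A single read is weak evidence of expression in these tables. Markers of B cells had at least 1 read in 17.6 to 46.2% of TAS-Seq T-like cells, and in 2.97 to 8.55% of BD WTA T-like cells. With at least 5 reads, B-cell markers in T-like cells and T-cell markers in B-like cells fell to at most 3.53% (TAS-Seq) and 5.43% (BD WTA) of cells. These markers had pooled levels of 190 to 1651 CPM in TAS-Seq and 205 to 2453 CPM in BD WTA, above the pooled level of every member but Ifi27l2a in TAS-Seq. At 5 reads, Ifi27l2a was found in 35.5% of TAS-Seq cells (32 to 39.2%) and 19.4% of BD WTA cells (16.4 to 22.7%). Bst2 was at 12.3% and 4.34%, Irf7 at 7.21% and 4.34%, and Rtp4 at 4.95% and 3.88%. Ifit1, Ifit3 and Isg15 were at 2.55%, 2.83% and 2.55% of TAS-Seq cells and 1.86%, 2.33% and 2.33% of BD WTA cells. The shares of these 3 members in both libraries, and those of Bst2, Irf7 and Rtp4 in BD WTA, were within the range of the misplaced markers and were not read as expression by a class. The highest level in a cell reached 2450 CPM for Ifit3 and 1400 CPM for Ifit1 in TAS-Seq. In BD WTA it reached 2000 CPM for Ifit3 and 1950 CPM for Ifit1.

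**Figure D1:**
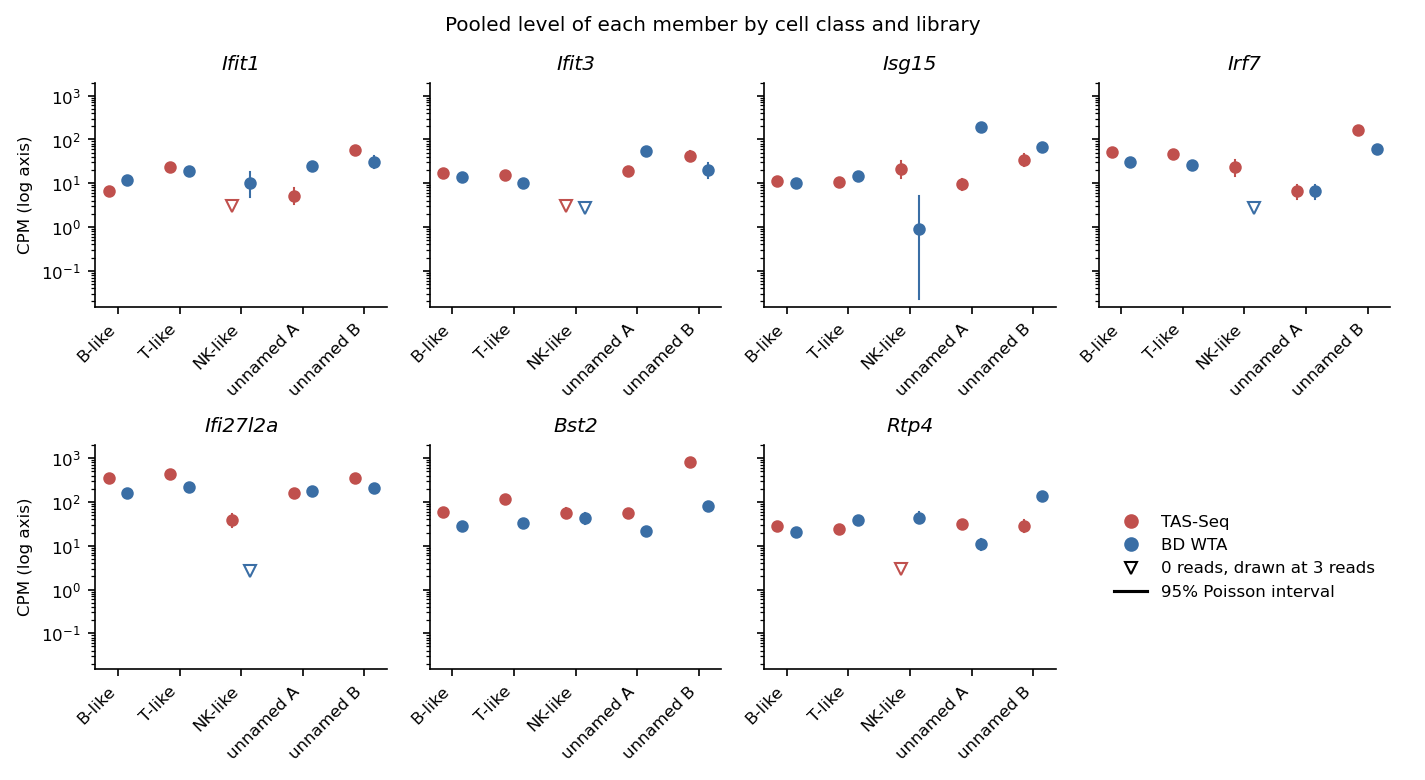
Pooled level of each member (CPM, log axis) in 5 cell classes, red for TAS-Seq and blue for BD WTA, with exact 95% Poisson intervals as bars and open triangles at the value of 3 reads where a class had 0 reads. Ifi27l2a is low in NK-like cells, Bst2 and Irf7 are highest in the unnamed B cells of TAS-Seq, and Isg15 is highest in the unnamed A cells of BD WTA, where 1 cell holds most reads.

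The libraries were then compared by pooled CPM over all filtered cells. Bst2 was at 109 CPM (106 to 112) in TAS-Seq and 32.2 CPM (30.2 to 34.2) in BD WTA, a ratio of 3.39 (log2 1.76, 1.66 to 1.86). Ifi27l2a was at 357 CPM (351 to 363) against 183 CPM (178 to 187), a ratio of 1.95, and Irf7 at 47.5 CPM (45.4 to 49.7) against 25.3 CPM (23.6 to 27.1), a ratio of 1.88. Bst2 was thus the only one of 7 members at least 2-fold higher in TAS-Seq, a level that 1007 of 10028 genes (10.0%) reached, and the median gene had a log2 ratio of 0.10. The higher level in TAS-Seq was also seen within T-like cells (log2 1.81 for Bst2, 1.01 for Ifi27l2a, 0.83 for Irf7) and within B-like cells (1.04, 1.18 and 0.75).

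Isg15 was the member that was at least 2-fold lower in TAS-Seq, with 12.0 CPM (10.9 to 13.1) against 43.2 CPM (41 to 45.6) in BD WTA (log2 -1.85), where 583 of 10028 genes (5.81%) were that much lower. A single BD WTA cell of unnamed A held 738 of the 1361 Isg15 reads (54.2%). Without the cell with the most Isg15 reads in each library, which was tried once the data had been viewed, the levels were 11.1 and 19.96 CPM (log2 -0.85). The ratio was also below 2-fold with cells thinned to equal depth (log2 -0.79), with each cell weighted equally (-0.74) and without the top 5 cells of each library (-0.57). The BD WTA cell with 738 Isg15 reads had 275436 reads in all and 0 reads of every other member. Of the plasma-cell markers, Jchain was at 16149 CPM, Mzb1 at 4535 CPM and Xbp1 at 1892 CPM. Irf4 was at 116 CPM, Sdc1 at 25.4 CPM and Prdm1 at 0 reads. In the T-like classes the log2 ratio of Isg15 was -0.43, and in the B-like classes it was 0.15. Ifit1 (15.1 against 17.6 CPM), Ifit3 (17 against 18.2 CPM) and Rtp4 (26.3 against 32.2 CPM) had log2 ratios of -0.22, -0.10 and -0.29, and the sign of the first pair turned when cells were thinned to equal depth (0.09 and 0.16).

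T-like and B-like cells were compared within each library. Ifit1 was at 23.3 CPM (21 to 25.8) in T-like and 6.61 CPM (5.39 to 8.03) in B-like cells of TAS-Seq, a ratio of 3.53 (log2 1.82, 1.5 to 2.15). It was the only one of 7 members past 2-fold in this direction, as were 8.81% of the genes tested, and none was 2-fold lower, against 16.3%. In the BD WTA library none was 2-fold higher (12.4% of genes were) and none lower (16.1%), with Ifit1 read in too few cells to be tested there. It had 18.8 CPM in T-like and 12.2 CPM in B-like cells. Few cells carry this difference, since 5 cells held 99% of the Ifit1 reads of TAS-Seq B-like cells and all those of BD WTA B-like cells. At 5 reads, Ifit1 was found in 11 of 273 T-like and 4 of 340 B-like cells of TAS-Seq, and in 5 of 269 and 3 of 276 in BD WTA.

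Ifi27l2a was slightly higher in T-like than B-like cells in both libraries, with 436 against 353 CPM in TAS-Seq (log2 0.31) and 217 against 156 CPM in BD WTA (log2 0.47). Bst2 was at 116 CPM in T-like and 58.5 CPM in B-like cells of TAS-Seq (log2 0.99), and at 33 and 28.5 CPM in BD WTA (log2 0.21). The TAS-Seq value of Bst2 turned to -0.25 when each library was clustered alone and 3 of the 24 unnamed B cells fell among the B-like cells. Rtp4 was at 24.2 CPM in T-like and 28.2 CPM in B-like cells of TAS-Seq (log2 -0.22), and at 38.2 and 20.3 CPM in BD WTA (log2 0.91), so its order differed between the libraries. Irf7 and Ifit3 were within 0.41 log2 units in both libraries, and Isg15 was at -0.06 in TAS-Seq and 0.52 in BD WTA. Without the cells high in several members, which are described further on, Ifit3 in TAS-Seq turned from -0.19 to 1.17, and in BD WTA Ifit1 was at 2.76, Isg15 at 1.28 and Rtp4 at 1.19. With BD WTA clustered alone, Ifit3 was at -1.40 and Isg15 at -1.87 there. Irf7 turned from -0.16 to 0.14 in TAS-Seq without the high cells, and from -0.24 to 0.31 in BD WTA clustered alone and to 0.17 with cells weighted equally. For Ifit3, Isg15 and Irf7 the order of T-like and B-like cells thus depended on the setting.

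NK-like cells were the class with the lowest Ifi27l2a. In TAS-Seq they had 37.9 CPM (26.8 to 52), below the 161 CPM of unnamed A, the next class in order. In the 26 NK-like cells of BD WTA it had 0 reads, where 3 reads would be 2.69 CPM, and the other classes ran from 156 to 217 CPM. It was read in 5 of 18 NK-like cells of TAS-Seq and in 0 of 23 of BD WTA, which allows a share of up to 13.0% if 3 cells of the total are taken as the limit (exact interval up to 14.8%). Ifit3 had 0 reads in NK-like cells of both libraries. Ifit1 and Rtp4 also had 0 reads in the TAS-Seq NK-like cells, where 3 reads would be 2.99 CPM, but were at 9.87 and 44 CPM in BD WTA. Irf7 was the reverse, with 22.9 CPM in TAS-Seq and 0 reads in BD WTA. Isg15 was at 20.9 CPM against 1 read, and Bst2 at 55.9 against 43.1 CPM. These values rest on 18 and 26 cells.

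The unnamed A cells, in which 5 to 6 B-cell markers were raised, had the lowest Irf7 of the classes with reads, at 6.49 CPM (4.38 to 9.26) in TAS-Seq and 6.55 CPM (4.48 to 9.25) in BD WTA. All Irf7 reads of the BD WTA class lay in 1 of 55 cells. Bst2 of the unnamed A cells was at 55.6 and 21.7 CPM, and their Rtp4 at 31.8 and 10.8 CPM. Ifit1, Ifit3 and Isg15 were at 5.19, 18.8 and 9.52 CPM in TAS-Seq. In BD WTA these were at 24.4, 53.6 and 197 CPM, and 5 cells held 95.8% of the Ifit3 reads and 97.2% of the Isg15 reads.

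The unnamed B cells held the highest Bst2 and Irf7. In TAS-Seq, Bst2 was at 816 CPM (768 to 865) and Irf7 at 167 CPM (146 to 190), each above the next class in order, and in BD WTA they were at 81.3 CPM (66.9 to 97.8) and 59.5 CPM (47.3 to 73.9). Of the Bst2 reads in this TAS-Seq class, 96.3% lay in 5 cells, and in BD WTA all of them lay in 2 of 27 cells. The class included cells with at least 3 markers of plasmacytoid dendritic cells (such as Siglech, Ccr9 and Tcf4) at 5 reads or more, of which TAS-Seq had 3 and BD WTA 0, by a rule made after the data were viewed. These 3 cells had 1950, 1450 and 5050 CPM of Bst2, and 350, 550 and 300 CPM of Irf7. Their Ifit1, Ifit3, Isg15 and Rtp4 were at 0 reads, and Ifi27l2a was at 0, 650 and 0 CPM. Ifit1, Ifit3 and Isg15 over the whole class were at 57.8, 42.5 and 34.4 CPM in TAS-Seq and 30.5, 19.6 and 67.5 CPM in BD WTA, all in 5 cells or fewer. Rtp4 in BD WTA was also highest in unnamed B (134 CPM, 115 to 154), and 4 of the 10 cells with neutrophil markers there had it at 500 to 900 CPM, while the other 6 had 0 reads. Of these 4 cells, 2 also met the rule for monocyte or macrophage markers.

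To ask whether a small group of cells held several members at once, a member was called high in a cell when it had at least 5 of 20000 reads and at least 4 times the mean of the cells of the same library and class. In TAS-Seq, 163 of 707 cells (23.1%) were high in at least 1 member, 45 (6.36%, 4.68 to 8.42%) in at least 2, and 16 (2.26%, 1.30 to 3.65%) in at least 3. In BD WTA the numbers were 145 of 645 (22.5%), 31 (4.81%, 3.29 to 6.75%) and 6 (0.930%, 0.342 to 2.01%). The intervals for 3 members overlap. At most 6 members were high in a TAS-Seq cell, and at most 4 in a BD WTA cell, with 2 such cells each. The cells high in at least 3 members, called high cells below, were chosen by these values, so their levels are a description.

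**Figure D2:**
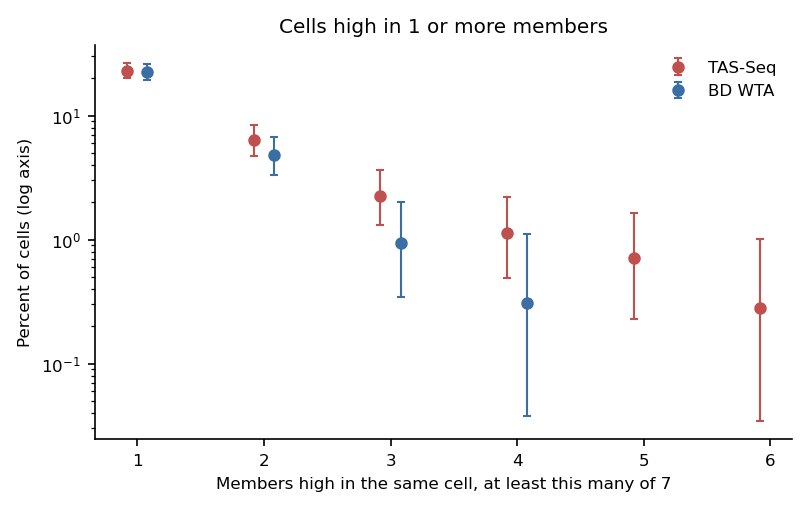
Percent of cells (log axis) that were high in at least 1 to 6 of the 7 members, with exact 95% binomial intervals, red for TAS-Seq and blue for BD WTA. The share falls from 23.1% and 22.5% for 1 member to 2.26% and 0.930% for 3, and no BD WTA cell was high in 5 or more.

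The high cells did not come from 1 class. In TAS-Seq they were 7 of 340 B-like cells (2.06%, 0.832 to 4.20%), 7 of 273 T-like cells (2.56%, 1.04 to 5.21%), 1 of 54 unnamed A and 1 of 22 unnamed B cells. In BD WTA they were 3 of 276 B-like, 2 of 269 T-like and 1 of 54 unnamed A cells. None of the 18 and 23 NK-like cells at this depth was among them, with exact intervals up to 18.5% and 14.8%. The unnamed B cell among them carried neutrophil markers.

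The T-like cells with 6 members high stood out in TAS-Seq. The first (T-like 8 in the heat map) had 300 CPM of Ifit1, 400 of Ifit3, 750 of Isg15, 400 of Irf7, 4200 of Ifi27l2a and 2200 of Bst2, with 0 reads of Rtp4. The other (T-like 9) had 1050 CPM of Ifit1, 550 of Ifit3, 700 of Isg15, 600 of Irf7, 1550 of Bst2 and 600 of Rtp4. In that cell Ifi27l2a, at 550 CPM, was the member not called high. A B-like cell with 5 members high (B-like 1) had 2450 CPM of Ifit3, 1250 of Irf7 and 3150 of Bst2, but 0 reads of Ifit1 and Ifi27l2a. Each of the 16 cells had at least 1 member at 0 reads except B-like 2 and T-like 9.

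Irf7 was high in most of the TAS-Seq high cells, and in few of the BD WTA ones. At least 5 reads of Irf7 were found in 14 of 16 TAS-Seq high cells and 1 of 6 BD WTA high cells. Ifi27l2a had 5 reads in 13 of 16 and 2 of 6, Ifit3 in 11 of 16 and 2 of 6, and Bst2 in 10 of 16 and 3 of 6. Ifit1, Isg15 and Rtp4 had 5 reads in 7 of 16 each in TAS-Seq, and in 4 of 6 each in BD WTA. The BD WTA cells differed in their members. B-like 1 was high in Ifit3, Irf7, Ifi27l2a and Rtp4, B-like 3 in Ifit1, Ifi27l2a and Bst2, and T-like 5 in Isg15, Bst2 and Rtp4. Of Ifit1, Isg15 and Rtp4, B-like 2 had 800, 950 and 300 CPM, T-like 4 had 500, 1100 and 550 CPM, and unnamed A 6 had 1200 CPM of Ifit1 and 1000 of Isg15 beside 1100 of Ifit3, with 0 reads of Rtp4.

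**Figure D3:**
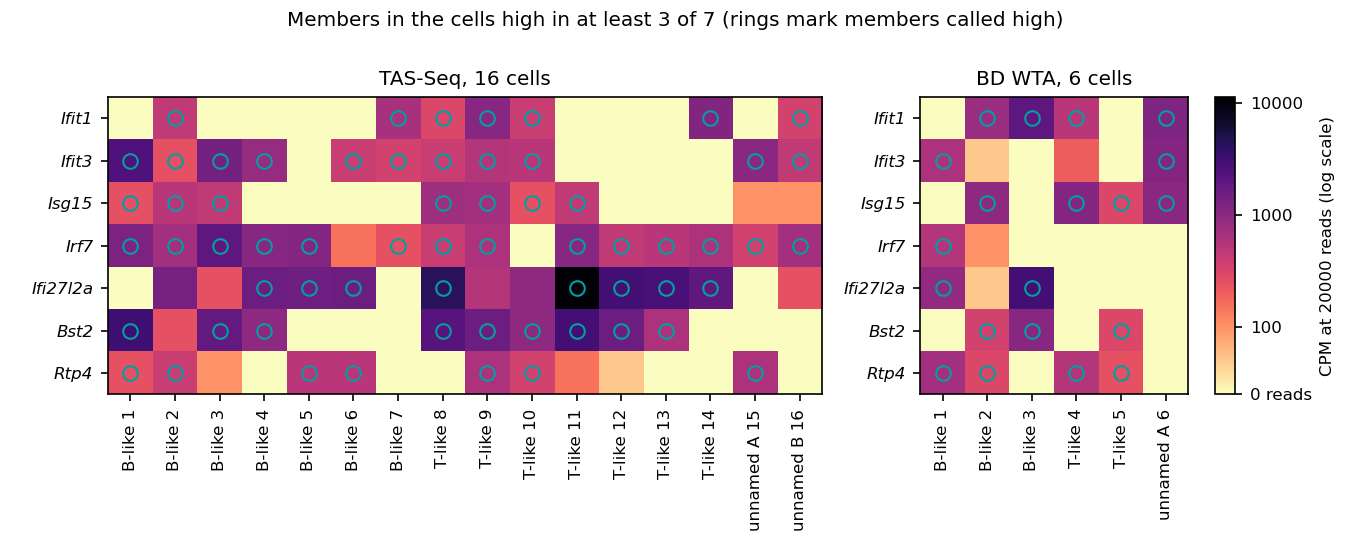
CPM at 20000 reads (colour, log scale) of the 7 members in the 16 TAS-Seq and 6 BD WTA cells that were high in at least 3 members, with rings on members called high and cells labelled by class and number. Irf7 is ringed in 14 of the 16 TAS-Seq cells but 1 of the 6 from BD WTA, and pale squares show that most cells lack reads of at least 1 member.

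The 16 TAS-Seq cells, 2.26% of the cells, held 56.4% of the thinned Ifit3 reads, 37.8% of the Isg15 reads, 32.2% of Ifit1 and 30.3% of Irf7, but 20.6% of Bst2, 16% of Rtp4 and 11.5% of Ifi27l2a. The 6 BD WTA cells held 38.5% of Ifit1, 22.6% of Isg15, 15.7% of Ifit3, 8.89% of Rtp4, 7.54% of Bst2 and 3.24% each of Irf7 and Ifi27l2a. To avoid choosing cells by the member described, each member was also read in the cells high in at least 2 of the other 6 members, a reading added with the data already in view. Every member was higher in these cells of TAS-Seq than in other cells of their class, from 20.2-fold for Ifit3 (220 against 10.9 CPM) and 9.85-fold for Isg15 to 3.01-fold for Ifi27l2a. In BD WTA the ratio was 14.1 for Ifit1 (170 against 12.1 CPM), 5.37 for Ifit3 and 5.01 for Isg15. There it was 1.03 for Irf7 (34.2 against 33.1 CPM) and 1.11 for Ifi27l2a (215 against 194 CPM), and Bst2 and Rtp4 were at 2.18 and 3.21. Most of the cells chosen by the other members were not high in the member itself. In TAS-Seq 7 of 39 were high in Ifit1, 11 of 40 in Ifit3 and 7 of 42 in Isg15. In BD WTA it was 4 of 27, 2 of 26 and 4 of 28. Those few cells are high cells by definition, so this reading rests largely on the same cells.

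In pairs, 8 TAS-Seq cells were high in both Ifit1 and Ifit3. This is 47.1% of the 17 cells high in Ifit1, while 2.69% of all cells were high in Ifit3, and 42.1% of the 19 cells high in Ifit3, while 2.4% of all were high in Ifit1. In BD WTA 1 cell was high in both, of 12 high in Ifit1 and 15 in Ifit3. All 21 pairs shared at least 1 cell in TAS-Seq, with at most 11 (Irf7 with Bst2, and Ifi27l2a with Bst2). In BD WTA 20 of 21 pairs did, with at most 5 (Isg15 with Rtp4), and 18 of 21 shared more cells than the share of each member in all cells would give. Ifit1 and Isg15 with Ifi27l2a shared 1 cell each, below that share, and no cell was high in both Isg15 and Irf7. The count of 18 is weak, since 1 shared cell can pass that share, as for Ifit3 with Isg15 (6.67% against 2.33%). Irf7 with Ifi27l2a was barely above it, with 10.7% of the cells high in Irf7 against 9.77% of all. Across all cells the rank correlations of the pairs were low, 0.03 to 0.27 over 707 TAS-Seq cells and 0.01 to 0.29 over 645 BD WTA cells, which share library and depth and are mostly at 0 reads.

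Genes of the pathway that the choice of cells did not use were then read in the high cells and in the other cells of their class. Of 50 type I interferon targets, 47 passed the filter of reads in at least 10 cells, and 43 of these were at least 2-fold higher in the TAS-Seq high cells, against 12.8% of 15068 genes. None was 2-fold lower, against 40.9% of genes. Their median log2 ratio, with 1 CPM added to both levels, was 2.41, while that of all genes was -0.55. In BD WTA, 35 of 47 were 2-fold higher, against 14.0% of 12201 genes, and 6 were lower, against 63.2%. The medians were 1.80 and -2.25. A sparsely read gene can have 0 reads in all of so few cells, which counts as lower. The shares of lower genes and the medians over all genes include such cases and do not show a general fall. Among the 6 lower targets, Cmpk2, Zbp1, Herc6, Uba7 and Ddx60 had 0 reads in the BD WTA high cells. They were read in 1.72 to 8.45% of the other cells. The remaining lower target, Samhd1, was not sparse, with reads in 3 of the 6 high cells and 58.5% of the others. It was at 158 against 443 CPM in BD WTA (log2 -1.48), but was higher in the TAS-Seq high cells (log2 1.37). Leaving out each high cell in turn, also added with the data in view, gave 40 to 44 targets in TAS-Seq and 29 to 36 in BD WTA. Shares over all genes are not given for these smaller sets of cells.

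Among type I targets in TAS-Seq, Mx1 was at 303 CPM in high cells and 5.74 CPM in others of their class (log2 5.50). In BD WTA it was at 16.7 against 10.6 CPM (log2 0.61, reads in 1 of 6 cells). Oas2 and Oas3, which make the activator of RNase L, were at 256 and 322 CPM in TAS-Seq against 5.47 and 13.8 CPM (log2 5.31 and 4.44). Rsad2, also called viperin, was at 175 against 2.51 CPM (log2 5.65) and was read in 3 of the 16 cells, but it failed the filter of 10 cells and is not among the 47. Such ratios rest on few cells, whereas Rnf213, Slfn5 and Trim30a were read in 12, 13 and 14 of them (log2 3.8, 3.64 and 2.77). In BD WTA the corresponding log2 ratios were 1.94, 2.77 and 2.62, with reads in 4, 4 and 5 of 6 cells. Oas2 in BD WTA (225 against 8.31 CPM) was read in 1 cell, and Ifitm3, which blocks virus entry, had 308 against 2.22 CPM (log2 6.59) in 2 cells. The targets with the highest levels, Ifi203, Sp100 and Ifi209, were at 1594, 1303 and 1369 CPM in the TAS-Seq high cells against 418, 416 and 250 CPM. In BD WTA, Ifi203 and Sp100 were below 2-fold, at 1058 against 546 CPM and 942 against 612 CPM (log2 0.95 and 0.62). Ifi209 was at 725 against 199 CPM there (log2 1.86).

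**Figure D4:**
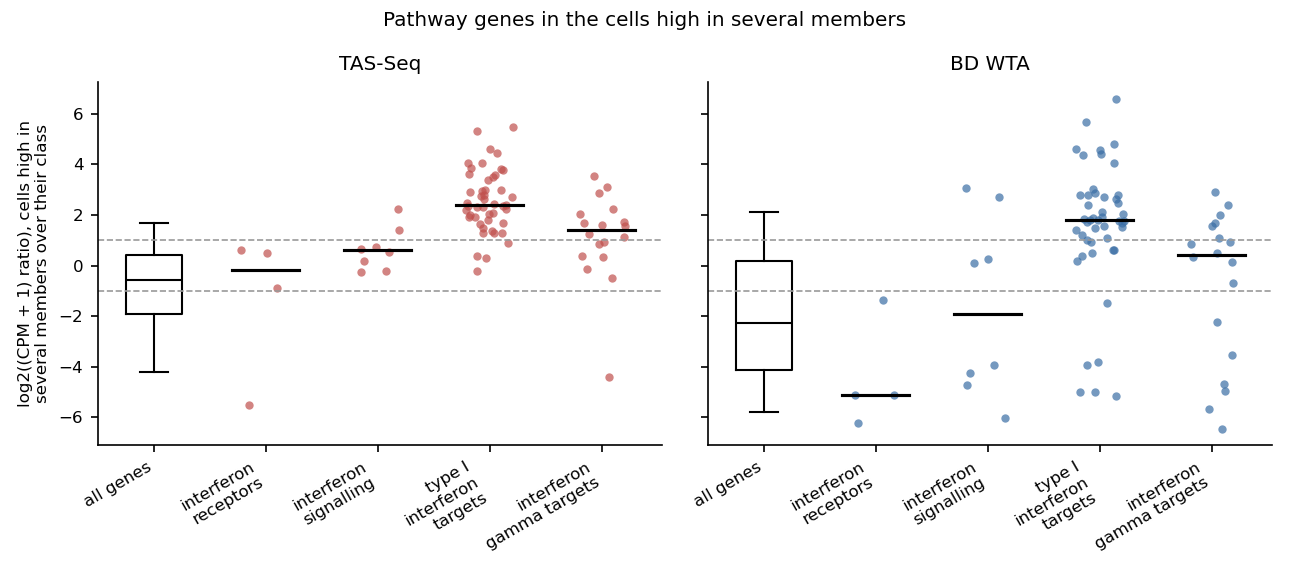
Log2 ratio (1 CPM added) of the level in cells high in several members over other cells of their class for each pathway gene, with black bars at list medians, dashed lines at 2-fold, and a box for all genes (quartiles, whiskers at the 5th and 95th percentile). Type I targets have medians of 2.41 in TAS-Seq and 1.80 in BD WTA, above interferon gamma targets at 1.41 and 0.41.

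Receptors, signalling genes and interferon gamma targets were read in the same cells. Of the 4 receptor chains, 0 were 2-fold higher in the high cells of either library, 1 was lower in TAS-Seq and 4 in BD WTA. Of 8 signalling genes, 0 were 2-fold lower in TAS-Seq and 4 in BD WTA. Over all genes 12.8% and 14.0% were higher, and 40.9% and 63.2% lower. Ifnar1, Ifnar2 and Ifngr2 had 0 reads in the 6 BD WTA high cells, and reads in 9.70, 8.92 and 13.5% of the other cells. With so few high cells, such a lower level is weak evidence. Stat2 was at 206 against 78 CPM in TAS-Seq (log2 1.39) and 558 against 65.3 CPM in BD WTA (log2 3.08). Irf9, the partner of Stat2, was at log2 0.56 and 0.25, and Jak1 at -0.23 and 0.09. Of interferon gamma targets, 11 of 18 were 2-fold higher in TAS-Seq, among them the GTPases Iigp1 (172 against 14 CPM), Irgm1 (244 against 27.4 CPM) and Gbp7 (444 against 94 CPM), and 1 was lower. In BD WTA 6 of 18 were higher and 6 lower, and Irgm1 was again higher (367 against 47.5 CPM). Iigp1 had 0 reads in the BD WTA high cells, and Gbp7 was at 33.3 against 54.6 CPM. Irf1, an early target of interferon gamma, was at log2 -0.50 in TAS-Seq and 1.67 in BD WTA. Of 7 interferon genes, Ifng was the one analysed here, and it had 0 reads in the high cells of both libraries.

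**Figure D5:**
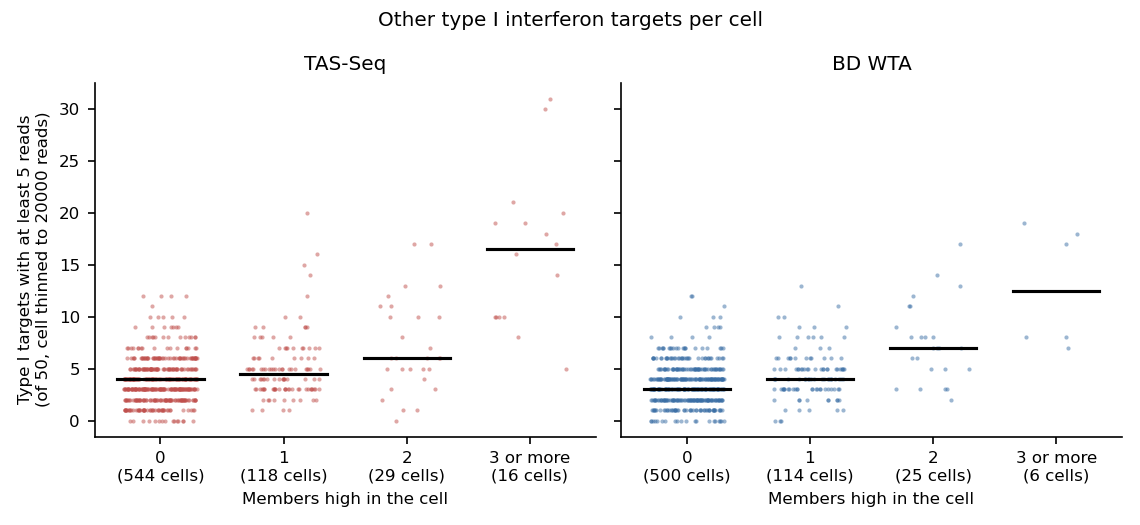
Number of the 50 type I targets with at least 5 reads in each cell thinned to 20000 reads, by how many members were high in the cell, with black bars at medians. The medians are 4, 4.5, 6 and 16.5 in TAS-Seq and 3, 4, 7 and 12.5 in BD WTA.

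Cell by cell, the number of type I targets with at least 5 reads was larger where more members were high. In TAS-Seq its median was 4 in 544 cells with no member high, 4.5 in 118 cells with 1, 6 in 29 cells with 2, and 16.5 (5 to 31) in the 16 high cells. In BD WTA the medians were 3 in 500 cells, 4 in 114, 7 in 25 and 12.5 (7 to 19) in 6. The highest numbers were 31 in B-like 3 and 30 in T-like 9 of TAS-Seq, and 19 in B-like 2 of BD WTA. Among the other cells, the 90th percentile was 7 in both libraries, which 15 of 16 and 5 of 6 high cells exceeded. The exceptions were B-like 5 of TAS-Seq, with 5 targets, and T-like 5 of BD WTA, with 7. Conversely, 3 of 691 other TAS-Seq cells and 4 of 639 other BD WTA cells reached the median of the high cells.

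Depth and quality of the high cells were also read. Their total reads were 25476 to 93923 in TAS-Seq (median 45226) and 29999 to 88479 in BD WTA (median 50959), against medians of 47083 and 40113 in the other cells. The mitochondrial share was 0.777 to 8.50% (median 5.03%) and 4.43 to 9.01% (median 6.26%), against 5.66% and 7.61%. No high cell was called a doublet, of 3 and 4 doublets called in all, which is 0.410% and 0.565% of cells. Markers of plasmacytoid dendritic cells summed to 0 to 1400 CPM in the 16 TAS-Seq high cells, with reads in 5 of them and in 44.6% of the other cells. Neutrophil markers were read in 11 of 16, with a median of 50 CPM in both groups and a highest value of 52650 CPM, in unnamed B 16. In BD WTA neutrophil and NK markers were at 0 in all 6, and plasmacytoid dendritic cell markers were read in 3 of 6, at up to 800 CPM, and in 27.9% of the other cells.

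The genes most like the members were taken as the 10 whose level was most raised in the high cells, among genes read in at least 50% of them and in at least 5. In TAS-Seq these were Gm6545, Ifit3b, Rnf213, Slfn5, Phf11a, Trim30d, Zbp1, Znfx1, Xaf1 and Parp9, with log2 ratios from 4.24 to 2.79. Of these, 6 were on the list of type I targets. Gm6545, which led with 363 against 18.2 CPM and reads in 9 of 16 cells, is annotated as a processed pseudogene. In the BD WTA high cells 9 of these 10 were above the others of their class, at log2 1.55 to 5.66. Over all genes 14.0% were at least 2-fold higher there. Few cells carry these values, with reads of Phf11a and Xaf1 in 1 of the 6 cells. Gm6545, Ifit3b, Znfx1 and Parp9 were read in 2 of them, and Rnf213, Slfn5 and Trim30d in 4. Zbp1, a sensor of Z-form nucleic acid, had 0 reads there. Reads of Ifit3b (55.2% of 31-base words shared) and Phf11a (54.2%) may belong to near copies.

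In BD WTA 5 of 6 cells had to hold a read, and the ranking included Tmem126a, Trim30a, Smchd1, Ifi213, Brix1, Dbnl, Papola, Gm13864 and Eef1g, with log2 ratios from 2.75 to 1.80. Ifi213, a member of the AIM2-like family of DNA sensors, was also higher in TAS-Seq (log2 2.24), as were Trim30a and Smchd1 (2.77 and 1.58). Brix1, Tmem126a and Dbnl, which are on no pathway list, were higher there too (1.65, 1.48 and 1.03). Over all genes 12.8% were at least 2-fold higher in the TAS-Seq high cells. Papola, a poly(A) polymerase, was at log2 -2.11 there, Eef1g, a translation elongation factor, at -0.11, and Gm13864 at 0.15.

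The pathway was also compared between T-like and B-like cells. Ifng was at 20.2 CPM in T-like and 0.194 CPM (3 reads) in B-like cells of TAS-Seq, a log2 ratio of 6.70 (5.14 to 8.99). Of 18 interferon gamma targets, 6 were 2-fold higher and 3 lower in T-like cells of TAS-Seq, and 9 higher and 3 lower in BD WTA, with medians of 0.45 and 0.82 against -0.10 and -0.02 for all genes. Over all genes, 8.81% were higher and 16.3% lower in TAS-Seq, and 12.4% and 16.1% in BD WTA. Higher in both libraries were Gbp2, Gbp7, Igtp, Iigp1, Tgtp1 and Nlrc5, and lower were Gbp3, Ciita, which drives MHC class II genes, and the transcription factor Irf8. Of the type I targets, 8 of 44 were higher and 7 lower in TAS-Seq, and 3 of 33 and 4 of 33 in BD WTA, with medians of -0.07 and -0.10, which is near the shares over all genes except for the higher ones in TAS-Seq. Between the libraries, 2 of 46 type I targets were 2-fold higher in TAS-Seq and 2 lower, against 10.0% and 5.81% of all genes.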

How the data were processed

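Spleen cells were sequenced in 2 libraries, 1 per method, grouped by their labels. The deposited tables hold counts, that is whole reads per gene and barcode that the authors made without molecular identifiers and did not normalize. The submitters' processing notes name cutadapt 2.10, Bowtie2 2.4.2 and R 3.6.3. The study's methods describe trimming, mapping to the forward strand of Ensembl release 101 transcripts of GRCm38 and selection of barcodes, and they name another cutadapt version. Whether the background correction of those methods was applied here is not given in the sources used here. Mapping to transcripts can divide reads among near copies, and uncollapsed reads let amplification set a value.

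Barcodes with at least 500 genes and at most 25% mitochondrial reads were kept (4 and 8 removed). Seurat 5.3.0 clustered both libraries together (6131 variable genes without members and pathway genes, 20 principal components, resolution 1). Names needed 3 markers of a type, raised by 1 log2 unit and read in 50% of the cluster's cells, with 2 among its top 10 genes. This rule followed a first look at the clusters. Rebuilt names can differ from the authors' names. Doublets were called by Scrublet in scanpy 1.11.5 and kept. Background shares are over genes at 10 CPM and in 10 cells. In the high cells genes in 10 cells were used. Steps were tested on simulated data. Pathway genes are named as the 3 highest of each list and those past 2-fold, up to 10 a comparison. Irf9, Irf1, Ciita, Irf8 and some further gamma targets, and single cells, were named after their values were seen. Members, lists and rules were chosen with earlier results of these data known. Alternatives included TMM factors from edgeR 4.0.16, depth, thresholds, clustering and leaving out cells. Positions came from GENCODE on GRCm38 and promoters from RefSeq. A withheld item is not reported here.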

Additional observations from a re-analysis of the deposited data

How the results depend on the processing

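No paired analysis was possible because there is a single library for either method and the values come from no test. Between the libraries, 2 members in place of 1 were at least 2-fold higher in TAS-Seq when cells were thinned, when each cell weighed the same, and without the 5 cells with the most reads of the member (Ifi27l2a in the first of these settings, at log2 1.01, and the second, at 1.07, and Irf7 in the last, at 1.06). In TAS-Seq, 2 members were 2-fold higher in T-like than B-like cells at resolution 2 and 3 without the high cells. In BD WTA, 1 was higher with each library clustered alone and at resolution 2, 2 with cells weighted equally and 3 without the high cells, and 2 were lower with each library clustered alone. No shares over all genes are given for these settings, so these counts of members have no background beside them. The high cells were chosen by member values, so the counts without them also reflect that choice. The share of cells high in several members in TAS-Seq was 1.27% with at least 10 reads and also without Ifi27l2a and Bst2, 6.36% for at least 2 members and 1.13% for at least 4. In BD WTA it was 4.81% and 0.310% for at least 2 and at least 4 members. In the other settings, 9 of 13 for TAS-Seq and 11 of 13 for BD WTA, the share stayed within its counting interval. Among BD WTA genes in at least 30 cells, 23 of 31 type I targets were higher in the high cells. The share over all genes with this filter is not given, so that count has no background beside it. The cause of these shifts was not tested. The ratio of T-like over B-like cells for Isg15 in BD WTA was past 2-fold in both directions (log2 -1.87 with each library clustered alone, 1.08 at resolution 2, 1.51 with cells weighted equally and 1.28 without the high cells). With 5 reads as the limit, depth does not allow low levels in single cells to be told from none, and without replicate libraries no difference between methods can be told from one between libraries.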

Other observations

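Cells with plasma-cell markers differed in Isg15, the ubiquitin-like member. Of the 6 BD WTA cells with at least 3 of these markers at 5 reads, 2 held Isg15 at 2250 and 450 CPM, 2 held 50 CPM and 2 held 0 reads, and both such TAS-Seq cells held 0 reads. Neutrophil-marker cells also differed among themselves. Of 10 in TAS-Seq, 1 held 7100 CPM of Ifi27l2a with 0 reads of the other members, 1 was high in Ifit1, Ifit3 and Irf7, and 2 held 0 reads of every member. Another held 1200, 850 and 450 CPM of Ifit1, Ifit3 and Irf7 but was called high in 2 members only. Of 10 in BD WTA, none was high in 3 members, and 2 held Isg15 at 1100 and 600 CPM. The cell with 1100 CPM also met the rule for monocyte or macrophage markers. These cells were picked by markers after the values were known, and each is a single cell.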
